A study of Caenorhabditis elegans with 9 samples.

Results

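The 10 genes described here belong to the hypoxia pathway of HIF-1, the oxygen-sensing transcription factor of Caenorhabditis elegans, and were matched by name among the 20389 genes listed for whole L2 larvae. They are 5 regulators, hif-1, egl-9, vhl-1, rhy-1 and cysl-1 (listed as C17G1.7), and 5 target genes, nhr-57, phy-2, cysl-2 (listed as K10H10.2), sqrd-1 and F22B5.4. The members were chosen by name, but selected on sight of their FPKM in these genotypes and of the deposited q, so the levels, folds and counts of its members are a description and are not used as support for anything.

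The RNA came from 3 genotypes with 3 libraries each. The transgenic line (AM1061) was homozygous for ok600, a deletion allele of hsf-1, which encodes the heat shock transcription factor HSF-1, and carried the transgene rmSi1[hsf-1::gfp]. The mutant was homozygous for hsf-1(ok600) without a transgene, and wild type was N2. Each library was a pool of 500 larvae put together from several collections, taken 30 h after an egg lay of 2 h, and the stated temperature was 20 °C. No low oxygen and no heat shock was named for any group. The mutant larvae were picked for lacking GFP among the offspring of a strain (OG576) balanced with hT2, a rearrangement of chromosomes I and III. None of the 10 genes lies on chromosome I or III.

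In the presence of oxygen the prolyl hydroxylase EGL-9 marks HIF-1, and the ubiquitin ligase adaptor VHL-1 then directs its destruction. When oxygen falls HIF-1 persists, pairs with AHA-1 and switches on its targets. Among these are egl-9 and rhy-1, whose products hold HIF-1 down. Both are thus regulators and targets, but they are counted here as regulators only. The worm pathway is also tied to hydrogen sulfide, since CYSL-1 binds EGL-9 and blocks it, and cysl-2 and sqrd-1 encode enzymes that handle cyanide and sulfide.

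Levels are FPKM, fragments scaled to transcript length and to the mapped fragments of the library, which can be compared between genes. The authors combined the 3 libraries of a genotype before deposit, so there is 1 value per gene and genotype, and no spread between libraries can be given. The bounds in brackets are those the authors deposited, whose level is not stated, and depth is unknown. Across members and genotypes, the distance from the middle of the interval to its bounds was 44.6% to 132% of the value, and some intervals were not symmetric about it. The deposited test, made with Cuffdiff, covers the mutant against wild type alone, and a call needs a q of 0.05 or less there and a level of 1 FPKM or more in either group. All 10 members were tested, and 9 of them reached 1 FPKM in all 3 genotypes. Whole larvae were measured, so fewer cells of a type and less RNA per cell cannot be told apart.

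The targeted gene and the tissue markers were looked at once. The gene hsf-1 was listed at 69.3 FPKM (29.4 to 109) in the transgenic line, 21.4 (6.52 to 36.4) in the mutant and 25.3 (7.62 to 43.1) in wild type. A whole-gene value does not check the deletion, and RNA of the transgene counts with it. Of 10 tissue and stage markers, those of muscle (unc-54, myo-3), intestine (vha-6, ges-1), epidermis (dpy-7) and neurons (rab-3, unc-119) were present in every genotype, and the adult yolk genes vit-2, vit-5 and vit-6 stayed at or below 1.74 FPKM. The intestinal esterase gene ges-1 was at 19.4 FPKM (5.72 to 33.0) in the transgenic line, 5.33 (0.791 to 9.92) in the mutant and 5.36 (0.487 to 10.3) in wild type. The other intestinal marker, vha-6, was at 136, 88.1 and 102 FPKM in the same order. The intervals overlapped for both genes.

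The mutant and wild type differed most in rhy-1, nhr-57, egl-9 and vhl-1. rhy-1 was 10.7-fold, nhr-57 5.81-fold and egl-9 3.23-fold higher in the mutant, while vhl-1 was 4.92-fold lower. hif-1 itself was 1.20-fold higher, with overlapping bounds. In the transgenic line rhy-1 and nhr-57 lay below the wild-type value, egl-9 lay between mutant and wild type, and vhl-1 was low as in the mutant. The bounds of the transgenic line and wild type overlapped for each of these genes. By that deposited test of the authors, 4 of the 10 members were called higher in the mutant and 1 lower, where 2.93% of 12615 tested genes were called higher and 2.90% lower. Higher were rhy-1, egl-9, nhr-57 and phy-2 and lower was vhl-1, and nothing is read from these shares because the members were chosen with them known. At a q of 0.01 or less rhy-1 and nhr-57 were still called, and egl-9, phy-2 and vhl-1 were not.

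hif-1 (F38A6.3, ce10 chromosome V, 20780380 to 20785231) encodes the transcription factor. It was listed at 366 FPKM (198 to 533) in the transgenic line, 281 (156 to 406) in the mutant and 235 (122 to 347) in wild type. It was the highest of the 10 genes in every genotype, and its 3 intervals overlapped. The log2 difference of FPKM + 1 was 0.26 for the mutant against wild type, where the authors' deposited table gives q = 0.534, and 0.64 for the transgenic line against wild type.

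egl-9 (F22E12.4, chromosome V, 10468388 to 10476929) encodes the oxygen-dependent hydroxylase that acts on HIF-1. Its level was 55.5 FPKM (15.4 to 95.7) in the transgenic line, 89.8 (40.5 to 139) in the mutant and 27.8 (2.56 to 64.3) in wild type. The mutant value was the highest of the 3, and all intervals overlapped. Mutant minus wild type, the log2 difference was 1.66 (q = 0.0116 in the authors' deposited table), and that of the transgenic line from wild type was 0.97.

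vhl-1 (F08G12.4, chromosome X, 11307296 to 11308257) encodes the worm counterpart of the von Hippel-Lindau protein. Levels of 5.64 FPKM (0.153 to 11.0) in the transgenic line, 8.93 (1.07 to 16.7) in the mutant and 43.9 (9.35 to 78.5) in wild type were listed. Both genotypes with ok600 lay low, whether or not the transgene was present, but the lower bound of wild type lay within the interval of each. The log2 difference was −2.18 for the mutant against wild type (q = 0.0166 in the authors' deposited table), the 132nd lowest of 12615 tested genes. It was −2.76 for the transgenic line against wild type, the 85th lowest of 12586 genes that reached 1 FPKM in either, and no deposited test was used for that comparison. Between transgenic line and mutant the log2 difference of vhl-1 was −0.58.

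rhy-1 (W07A12.7, chromosome II, locus 9161318 to 9165703) encodes a membrane protein that restrains HIF-1. rhy-1 stood at 6.25 FPKM (0.408 to 12.1) in the transgenic line, 104 (47.3 to 160) in the mutant and 9.71 (0.263 to 19.4) in wild type. The mutant stood alone, since its lower bound lay above the upper bounds of both other genotypes, and the transgenic line and wild type overlapped. The lower bound of the mutant was 2.44 times the upper bound of wild type. The log2 difference of 3.29 was the 58th highest of 12615 tested genes (q = 0.00249 in the authors' deposited table). Between transgenic line and mutant rhy-1 was 16.6-fold lower, a log2 difference of −3.85. The files place rhy-1 in 1 locus with W07A12.8, which overlaps it on the opposite strand in the WBcel235 annotation and was listed at 2.21, 1.04 and 0 FPKM in transgenic line, mutant and wild type. Whether counting used strand is not stated in the sources used here.

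cysl-1 (C17G1.7, chromosome X, 9952504 to 9954482) encodes a protein of the cysteine synthase family that acts as a signalling partner of EGL-9. The level of cysl-1 was 87.1 FPKM (35.4 to 139) in the transgenic line, 43.8 (15.6 to 71.8) in the mutant and 50.2 (18.7 to 81.6) in wild type. The mutant and wild type were nearly level, and the 3 intervals overlapped. The log2 differences were −0.19 for the mutant against wild type (q = 0.796 in the authors' deposited table) and 0.97 for the transgenic line against the mutant.

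**Figure D1:**
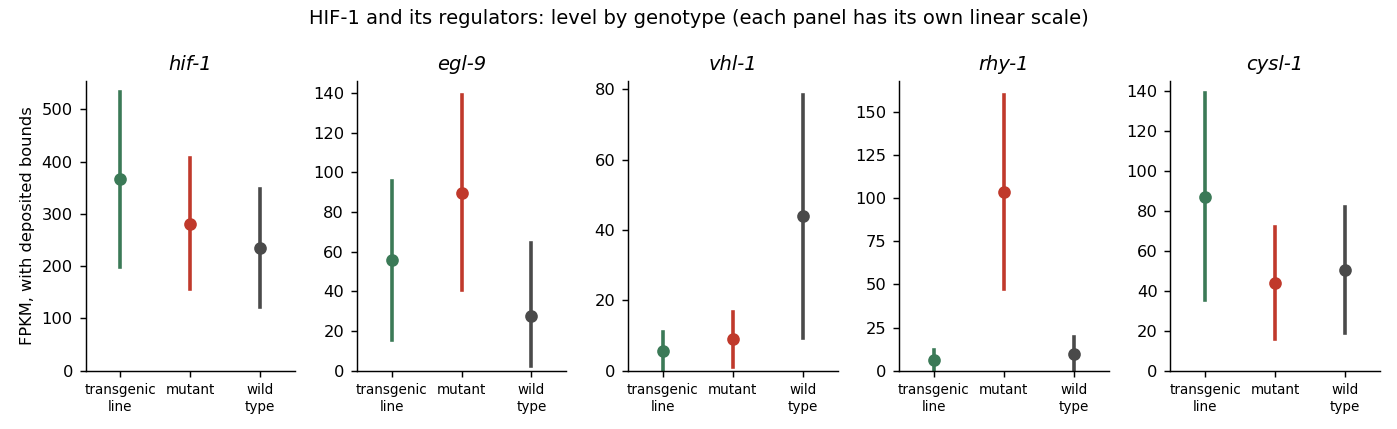
FPKM of hif-1, egl-9, vhl-1, rhy-1 and cysl-1 in the transgenic line, the mutant and wild type, from left to right in each panel, each panel on its own linear axis. Points are the deposited values and lines run between the deposited bounds. The mutant interval of rhy-1 (47.3 to 160) lies above both others, while vhl-1 is low in transgenic line (5.64) and mutant (8.93) beside wild type (43.9).

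Among the targets, nhr-57 (T05B4.2, chromosome V, 4131910 to 4134930) encodes a nuclear hormone receptor and is widely used to report HIF-1 activity. The transgenic line had 4.97 FPKM (0.389 to 9.50), the mutant 118 (53.97 to 182) and wild type 20.3 (4.52 to 36.1). As for rhy-1, the mutant interval lay above both others, and those of transgenic line and wild type overlapped. The lower bound of the mutant was 1.497 times the upper bound of wild type. On the log2 scale nhr-57 was 2.48 higher in the mutant than in wild type, the 142nd highest of 12615 tested genes (q = 0.00249 in the authors' deposited table). The transgenic line was 23.8-fold below the mutant, a log2 difference of −4.32 and the 21st lowest of 13094 genes. Against wild type it was 4.09-fold lower, a log2 difference of −1.84 with overlapping intervals. In the WBcel235 annotation the end of nhr-57 overlaps the ion channel gene lgc-1 on the same strand, and lgc-1 was listed at 0.454 FPKM (0 to 1.31) in the transgenic line, 10.3 (1.49 to 19.1) in the mutant and 1.96 (0 to 4.11) in wild type, and has a q of 0.102 in that deposited table of the authors. Its part in the value of nhr-57 was not tested.

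phy-2 (F35G2.4, chromosome IV, 12211073 to 12215967) encodes a catalytic subunit of the prolyl 4-hydroxylase that modifies cuticle collagens. The level of phy-2 was 131 FPKM (59.8 to 202) in the transgenic line, 173 (87.5 to 258) in the mutant and 95.1 (39.7 to 151) in wild type. The mutant was highest and the transgenic line stood in between, with all intervals overlapping. The mutant was 1.81-fold above wild type, a log2 difference of 0.85, where the authors' deposited table gives q = 0.0148.

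cysl-2 (K10H10.2, chromosome II, locus 14489725 to 14494439) encodes a cyanoalanine synthase, which detoxifies hydrogen cyanide. cysl-2 stood at 196 FPKM (73.1 to 320) in the transgenic line, 219 (87.5 to 350) in the mutant and 126 (13.9 to 243) in wild type. The 3 intervals overlapped over most of their length. Mutant minus wild type, the log2 difference was 0.79 and was not called (q = 0.247 in the authors' deposited table). The files place it in 1 locus with K10H10.1 (vnut-1), which overlaps it on the opposite strand in the WBcel235 annotation and was listed at 70.8, 48.0 and 53.3 FPKM in transgenic line, mutant and wild type. cysl-1 and cysl-2 belong to 1 gene family, and how reads matching several copies were counted is not stated in the sources used here.

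sqrd-1 (F02H6.5, chromosome IV, 14219850 to 14224415) encodes a sulfide:quinone oxidoreductase of the mitochondria. Its level was 1.80 FPKM (0 to 4.75) in the transgenic line, 9.85 (0.756 to 19.0) in the mutant and 7.12 (0.176 to 15.2) in wild type. Levels were low in all larvae, and the intervals overlapped. The log2 difference was 0.42 for the mutant against wild type (q = 0.697 in the authors' deposited table) and −1.95 for the transgenic line against the mutant.

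F22B5.4 (chromosome II, 8449650 to 8452686) is a HIF-1 target whose product has no assigned function. Its level was 0.893 FPKM (0 to 2.32) in the transgenic line, 5.20 (0 to 12.4) in the mutant and 15.6 (0 to 31.0) in wild type. The lower bound was 0 in every genotype, so the intervals overlapped. The log2 difference was −1.42 for the mutant against wild type (q = 0.539 in the authors' deposited table). It was −3.14 for the transgenic line against wild type, the 45th lowest of 12586 genes. At these levels a difference was not detectable within the deposited bounds.

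**Figure D2:**
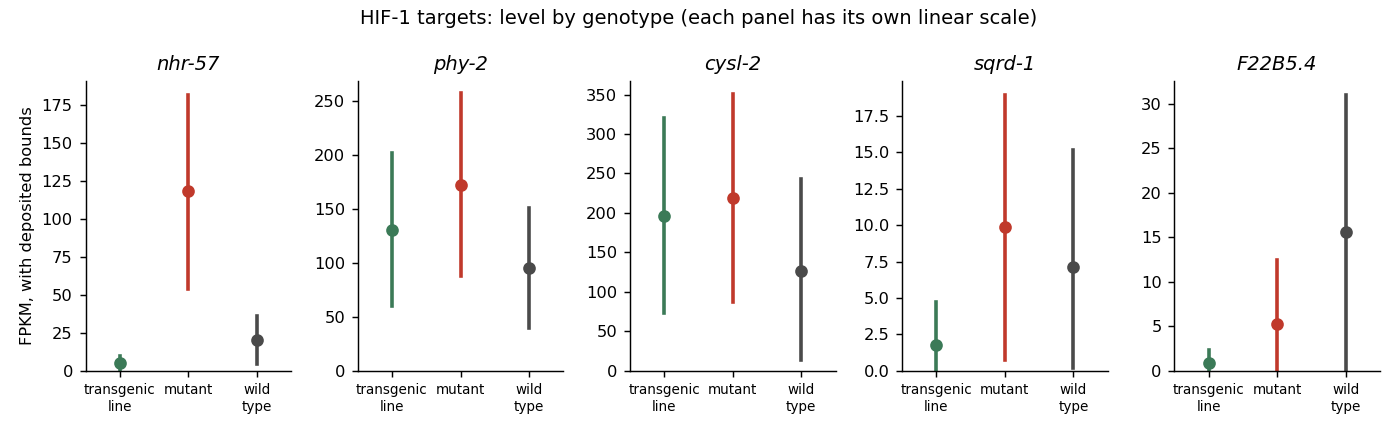
FPKM of nhr-57, phy-2, cysl-2, sqrd-1 and F22B5.4 in the transgenic line, the mutant and wild type, from left to right in each panel, each panel on its own linear axis. Points are the deposited values and lines run between the deposited bounds. Of these targets, nhr-57 has a mutant interval (53.97 to 182) above both others, and the other 4 have overlapping intervals.

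The order of the levels changed below the top 3. In all genotypes hif-1, cysl-2 and phy-2 were highest, in that order. In the transgenic line cysl-1 and egl-9 followed, then rhy-1, vhl-1, nhr-57, sqrd-1 and F22B5.4. In the mutant nhr-57 and rhy-1 came next, ahead of egl-9, cysl-1, sqrd-1, vhl-1 and F22B5.4. In wild type cysl-1 and vhl-1 came next, then egl-9, nhr-57, F22B5.4, rhy-1 and sqrd-1. Neighbours in the order overlapped in their bounds in 8 of 9 pairs in the transgenic line, where egl-9 stood apart from rhy-1, in 9 of 9 in the mutant and in 9 of 9 in wild type. The highest member exceeded the lowest 409-fold in the transgenic line, 54.05-fold in the mutant and 32.9-fold in wild type.

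Regulators and targets each held members that lay higher and members that lay lower in the mutant. Of the 5 regulators 2 were called higher, 1 lower and 2 were not called, with a median log2 difference of 0.26. The 2 called higher, egl-9 and rhy-1, are also targets of HIF-1, so these counts and medians do not separate regulators from targets. Of the 5 targets 2 were called higher, 0 lower and 3 were not called, with a median of 0.79. Over the 12615 tested genes 2.93% were called higher and 2.90% lower. Nothing is read from these counts, because the members were chosen with the calls known. Over all 10 members the median was 0.60, with 7 above 0 and 3 below, and over the 12615 tested genes it was 0.13, with 56.9% above 0.

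The transgenic line was set against wild type and against the mutant by its deposited intervals, as no deposited test was used for these. Against wild type 0 of 10 intervals lay apart, where 0.685% of 12563 genes did so in either direction. Against the mutant 2 lay apart, rhy-1 and nhr-57, both lower in the transgenic line, where 0.689% of 13071 genes did so in that direction. For the mutant against wild type the same 2 genes lay apart, both higher, where 0.622% of 13185 genes did so in that direction. The 3 comparisons share their genotypes and are not independent of each other. The median log2 difference of the 5 targets was −1.54 for the transgenic line against wild type and −1.71 against the mutant. The corresponding medians of the 5 regulators were 0.64 and −0.58, and those over all genes that reached 1 FPKM in either were 0.001 and −0.19. The target medians are the values of sqrd-1 and F22B5.4, which were low with overlapping intervals. Against wild type nhr-57, sqrd-1 and F22B5.4 lay lower in the transgenic line, and phy-2 (0.45) and cysl-2 (0.63) higher.

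**Figure D3:**
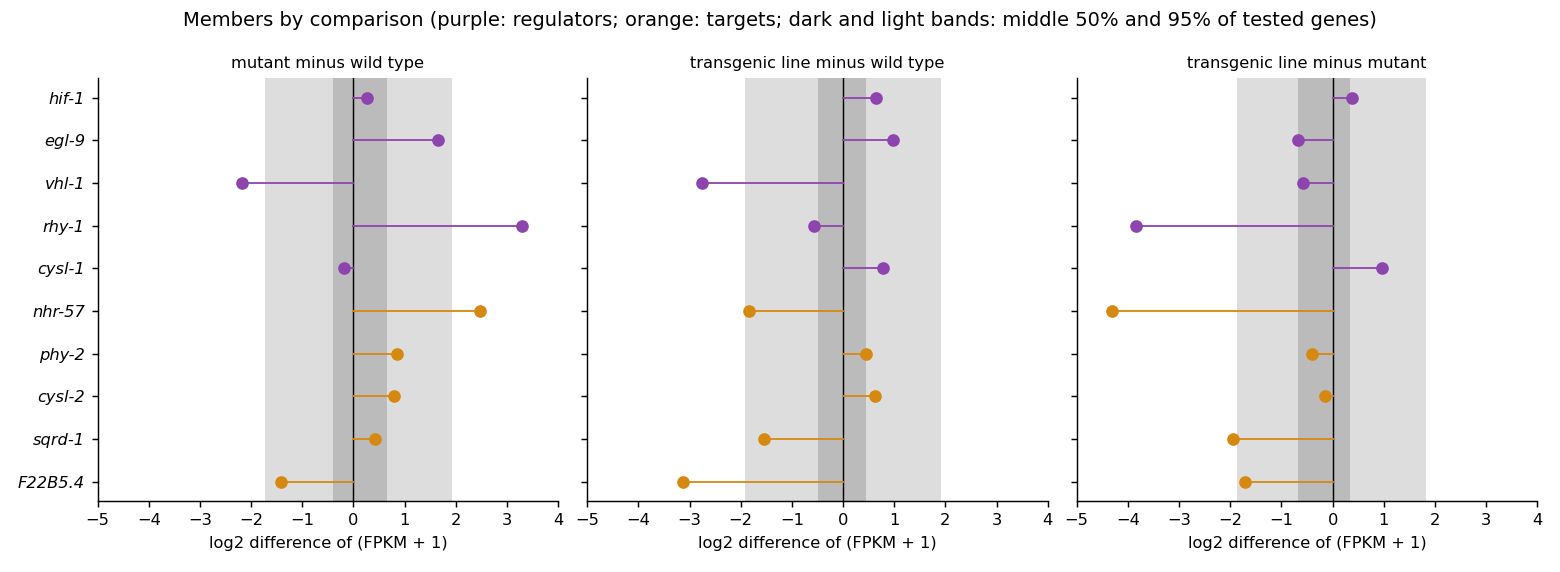
Log2 difference of FPKM + 1 for the 10 genes in 3 comparisons, mutant minus wild type, transgenic line minus wild type and transgenic line minus mutant, with 1 point per gene. The dark and light bands hold the middle 50% and 95% of the 12615 tested genes. Outside the light band lie rhy-1 (3.29), nhr-57 (2.48) and vhl-1 (−2.18) at left, vhl-1 (−2.76) and F22B5.4 (−3.14) in the middle, and rhy-1 (−3.85), nhr-57 (−4.32) and sqrd-1 (−1.95) at right.

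Other genes of the pathway were taken from 6 lists, written from general knowledge of it. Their calls are given beside the shares of all tested genes, and nothing is read from counts of so few genes. Of 50 genes 49 were found and 42 were tested for the mutant against wild type, of which 2 were called higher, 2 lower and 38 not called in the authors' deposited table, beside 2.93% and 2.90% of all tested genes. Of these 4, dct-1 and aldo-2 were still called at a q of 0.01 or less, and cth-2 and hpk-1 were not.

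The partners of HIF-1, EGL-9 and VHL-1 were not called. They are aha-1, the partner subunit of HIF-1, swan-1, a protein that binds EGL-9, and cul-2, elc-1, elb-1 and rbx-1 of the VHL ubiquitin ligase. Of these 6, 0 passed Cuffdiff's q, and the median log2 difference was −0.22. Nothing is read from 0 calls among so few genes, since 2.93% of all tested genes were called higher and 2.90% lower. The adaptor gene elc-1 differed most and was listed at 3.74 FPKM (0 to 7.33) in the transgenic line, 3.21 (0 to 6.28) in the mutant and 8.06 (0.209 to 15.7) in wild type. The cullin gene cul-2 was at 65.0 FPKM in the transgenic line, 47.1 in the mutant and 63.2 in wild type. The log2 difference of aha-1 between mutant and wild type was 0.48.

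Other collagen prolyl 4-hydroxylase genes, listed beside phy-2, were not called either. Of 4 genes 3 were tested and 0 passed Cuffdiff's q, with a median of −0.01, and so few genes are again not read against the shares of all tested genes. dpy-18, the other main catalytic subunit, was listed at 162 FPKM (85.9 to 238) in the transgenic line, 172 (92.4 to 252) in the mutant and 188 (101 to 274) in wild type.

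Genes of cysteine and sulfide metabolism mostly did not pass, as held for all tested genes. Of 14 genes 13 were found and 9 tested, with 0 called higher and 1 lower and a median of −0.45. The cystathionine gamma-lyase gene cth-2, whose enzyme makes cysteine, was the 1 called lower. It was listed at 407 FPKM (209 to 605) in the transgenic line, 177 (80.9 to 272) in the mutant and 304 (130 to 479) in wild type, a log2 difference of −0.78 between mutant and wild type (q = 0.0383 in the authors' deposited table). The largest difference was that of the mercaptopyruvate sulfurtransferase gene mpst-3, at 9.29 FPKM in the transgenic line, 8.23 in the mutant and 16.5 in wild type, where the authors' deposited table gives q = 0.307.

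The list of further targets went both ways. Of 6 genes, all tested, 1 was called higher, 0 lower and 5 were not called, with a median of 0.18. Whether HIF-1 raises or lowers each of these genes was not assigned here. Their median and directions are therefore not read as a measure of HIF-1 activity. The mitophagy receptor gene dct-1, whose mammalian counterpart BNIP3 is a target of HIF in mammals, was the 1 called higher. It was listed at 62.0 FPKM (9.08 to 114.9) in the transgenic line, 227 (95.6 to 359) in the mutant and 59.3 (5.44 to 114) in wild type. The mutant was 3.83-fold above wild type, a log2 difference of 1.92 (q = 0.00249 in the authors' deposited table), and its interval overlapped both others. The transgenic line was within 1.04-fold of wild type. The iron transporter gene smf-3 was listed at 1.26 FPKM (0 to 2.63) in the transgenic line, 0.214 (0 to 0.547) in the mutant and 5.94 (0.447 to 11.4) in wild type, where the authors' deposited table gives q = 0.0705. Between mutant and wild type smf-3 differed by −2.51 on the log2 scale. R08E5.3 was at 10.5, 2.89 and 12.9 FPKM in transgenic line, mutant and wild type and was not called (q = 0.190 in the authors' deposited table). The ferritin gene ftn-1 was at 9.10, 22.2 and 13.0 FPKM in transgenic line, mutant and wild type, and the cytochrome P450 gene cyp-36A1 at 9.16, 23.4 and 14.2, neither of them called.

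In glycolysis, which HIF raises in mammals, 14 of 15 genes were tested, 0 were called higher and 1 lower, with a median of −0.11. The aldolase gene aldo-2 was the 1 called lower (q = 0.00249 in the authors' deposited table). It was listed at 915 FPKM (544 to 1286) in the transgenic line, 390 (211 to 568) in the mutant and 755 (447 to 1063) in wild type. The lactate dehydrogenase gene ldh-1 was at 344 FPKM in the transgenic line, 163 in the mutant and 254 in wild type and was not called (q = 0.123 in the authors' deposited table). Of 5 genes reported to act in low oxygen beside HIF-1, 4 were tested, 1 was called higher and 0 lower, with a median of 0.32. The kinase gene hpk-1 was the 1 called higher (q = 0.0403 in the authors' deposited table). It was at 196 FPKM (109 to 283) in the transgenic line, 203 (115.4 to 291) in the mutant and 108 (55.6 to 160) in wild type. The mutant and the transgenic line were both above wild type in hpk-1, with overlapping intervals.

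**Figure D4:**
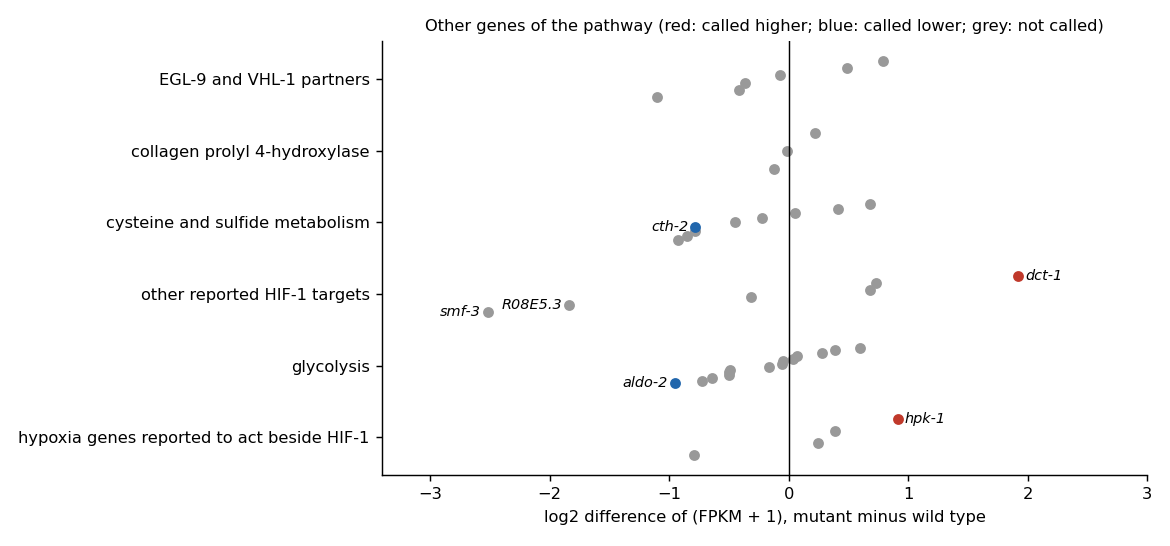
Log2 difference of FPKM + 1, mutant minus wild type, for the 42 tested genes of 6 pathway lists, with 1 point per gene, coloured by the call in the deposited test. dct-1 (1.92) and hpk-1 (0.91) were called higher, cth-2 (−0.78) and aldo-2 (−0.95) lower, and smf-3 (−2.51) was not called.

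The member with the widest range over the 3 genotypes was nhr-57, at 4.32 on the log2 scale. Likeness of pattern was measured as the Euclidean distance between 3 values of log2(FPKM + 1) per gene, each gene centred on its own mean, over 10297 genes that reached 5 FPKM. With 3 genotypes such a distance is a description only. The 5 nearest were T26H5.9 (distance 0.52), F53B2.8 (0.65), T28A11.4 (0.77), F36H5.10 (0.79) and F19B10.13 (0.81). F53B2.8 was listed at 95.4 FPKM (34.3 to 156) in the transgenic line, 1034 (508 to 1535) in the mutant and 226 (93.4 to 356) in wild type, and its mutant interval lay above both others. T26H5.9 was at 2.46 FPKM (0 to 4.80) in the transgenic line, 84.7 (8.92 to 110) in the mutant and 8.20 (0 to 16.1) in wild type. Its mutant interval overlapped that of wild type (q = 0.0587 in the authors' deposited table). In the same deposited test T28A11.4 and F36H5.10, with a mutant lower bound of 0, had q = 0.506 and 0.527. F19B10.13 had q = 0.0509 there, so of the 5 only F53B2.8 (q = 0.00249) was called. rhy-1 lay at a distance of 0.91 from nhr-57, 17th in the order of nearness, and sqrd-1 followed at 1.82 and in place 241.

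**Figure D5:**
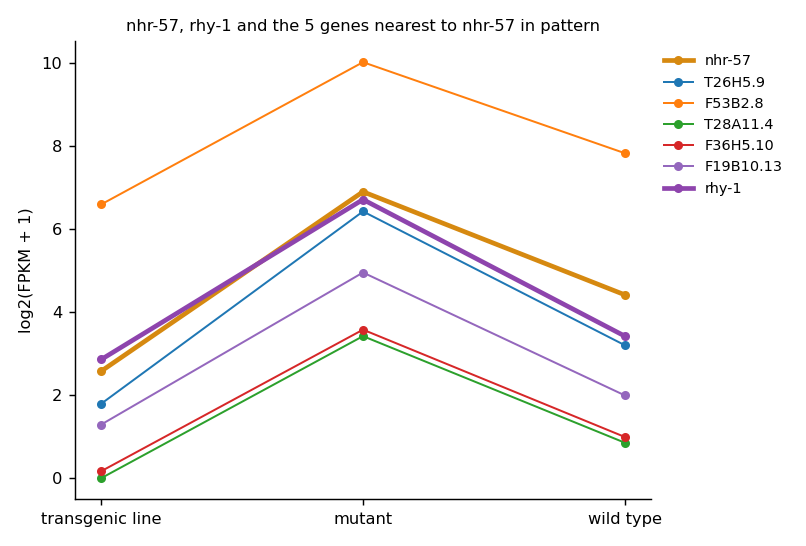
Log2(FPKM + 1) of nhr-57, rhy-1 and the 5 genes nearest to nhr-57 in pattern, by genotype, with 1 line per gene. Every line peaks in the mutant and is lowest in the transgenic line, with nhr-57 at 4.97, 118 and 20.3 FPKM.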

How the data were processed

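RNA-seq of whole L2 larvae was deposited as 2 tables of the whole series. Per the file headers, the authors gave 1 FPKM value with a lower and an upper bound per gene and genotype, and p-values and q-values of a test of mutant and wild type. Per the submitters' processing notes, TopHat2, Cuffdiff and the build ce10 were used. Their versions, annotation and filters are not given in sources used here. Per the labels' protocols, the Nugen Ovation RNA-Seq V2 kit was used for the libraries. The labels do not say whether libraries of 1 genotype came from separate cultures. The deposited q-values therefore set the difference against a variance drawn from libraries that may be technical replicates.

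Log2 differences are on the log2(FPKM + 1) scale (pseudocount 1), where changes of low genes come out too small. Folds are plain ratios of FPKM. Levels are from the table of all genotypes, whose scale differs from the test table (median ratio 1.04). Intervals were counted as apart where both genotypes had the status OK and 1 of them an FPKM of at least 1. Coordinates are from the files (ce10), where starts are counted from 0, and 1 was added to each start. Older names were matched through the RefSeq table of WBcel235 (19879 of 20389 genes), and overlaps were read from Ensembl release 115. The members and lists were chosen with earlier results of these data known. The text names all members, hsf-1, every called gene of the lists and the most different gene of each among those that reached 5 FPKM in a genotype, and the 5 nearest patterns; cul-2, aha-1, ftn-1, R08E5.3, cyp-36A1 and ldh-1, the marker genes and the genes overlapping members were named after their values were seen. The scripts were tested on simulated data and run in Python 3.11.15 with pandas 2.3.3 and numpy 2.4.6. That simulation left out genes with wide wild-type intervals, such as egl-9, rhy-1 and F22B5.4, and did not use Cuffdiff's q. It therefore does not show how the rules act on such genes. Sequences and promoter motifs were not analysed here.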

Additional observations from a re-analysis of the deposited data

How the results depend on the processing

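The deposited tables hold 1 value per genotype, so no library could be left out. No paired analysis was possible because the columns combine the libraries of a genotype and carry no replicate number. At a q of at most 0.01, 190 genes were called higher and 163 lower in the mutant. Of the members, 2 were then called higher and 0 lower, since egl-9, vhl-1 and phy-2 were lost, and of the pathway lists 1 was higher and 1 lower, without hpk-1 and cth-2. With a fold of at least 1 on the log2 scale added to the q, an alternative chosen for the lists after seeing the data, 1 list gene was higher and 0 lower, and phy-2 was lost among the members. With an FPKM of at least 5, no call of a member or of a list gene was lost. Dropping the filter or adjusting the p-values again over the filtered genes could change no call, since all 12615 tested genes pass the filter, and centring does not touch the deposited q. For the mutant against wild type and for the transgenic line against the mutant, 2 members had intervals apart without a filter, with an FPKM of at least 5, and after centring each genotype on its median over 7886 genes. The 30 log2 differences of members kept their sign in all 100 alternatives, with pseudocounts of 0.1 and 0.01, centring and the values of the test table, and each stayed within the deposited bounds carried to the log2 scale. The kept signs are no support, since a pseudocount cannot change a sign and the test table rescales both genotypes nearly alike (median ratio 1.04). The largest centring shift (0.069, transgenic line against mutant) was also below the smallest member difference (−0.155, cysl-2, same comparison). Staying within the bounds is no support either, since they are wide and were carried to the log2 scale by a linear approximation. The largest shift was that of F22B5.4 in the transgenic line against wild type, from −3.14 to −4.11 with a pseudocount of 0.01. Even this shift of 0.98 counted as within the bounds. The motif window could not be varied, as promoter sequences were not used here. Wide bounds limit the precision most for sqrd-1 and F22B5.4.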
